A study of Mus musculus with 20 samples.

Results

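The genes described here are 10 that equip a cell to present antigen to CD4 T cells and to costimulate them: H2-Aa, H2-Ab1, H2-Eb1, H2-DMa, H2-DMb1, Cd74, Ciita, Cd80, Cd86 and Cd40. They were picked by symbol and role out of 21315 gene symbols measured in 20 RNA-seq libraries of microglia, the resident macrophages of the brain. Each of the 10 stood on a single line of every table, and all 10 passed the filter on low values in each of the fits below. The study asked what the complement receptor C3aR does in microglia of mice that form amyloid plaques.

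MHC class II molecules are heterodimers of an alpha and a beta chain that carry peptides from ingested protein to the cell surface. In mice the I-A molecule is made of the products of H2-Aa and H2-Ab1, and H2-Eb1 encodes the beta chain of the I-E molecule, whose alpha chain is not made in C57BL/6 mice. The invariant chain, encoded by Cd74, escorts new class II dimers and blocks their groove, cathepsins trim it to a short peptide, and the H2-DM heterodimer exchanges that peptide for antigen. Ciita is the coactivator that class II promoters need, and interferon gamma is its classic inducer. CD80 and CD86 engage CD28 and CTLA4 on T cells, and CD40 receives CD40 ligand. Resting microglia carry little class II, whereas border-associated macrophages and dendritic cells carry much more.

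All mice were 9 months old and of C57BL/6 background. Of the lines crossed, the paper describes the background only of C3aR-KO mice, which had 5 generations of backcrossing to C57BL/6J. Which H2 alleles the mice carried was not tested. APP-KI mice have the NL-G-F mutations and a humanized Aβ sequence in their own App gene, and C3aR-KO mice carry a germline deletion of C3ar1. Microglia were sorted from brain as CD45mid CD11b+ cells. In 6 libraries, 3 of WT and 3 of APP-KI mice that also carried a Td-tomato reporter in a floxed C3ar1 allele, the sort kept Td-tomato-positive cells and the libraries are labelled C3aR-positive. The other 14 libraries held the whole gate, whatever its C3aR, from littermates of 4 genotypes: 3 WT, 3 APP-KI, 3 C3aR-KO and 5 APP-KI; C3aR-KO (double-mutant) libraries. No source states that each library came from a separate mouse, so p-values measure the spread between these libraries.

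Reads on genes ran from 13939559 to 30388941 in the C3aR-positive libraries and from 42239056 to 76608464 in the other 14. The C3aR-positive libraries form a library series of their own, and the other 14 fall into a pair of series, numbered 2 and 3 here, that each hold all 4 genotypes. In series 2, 4 libraries had reads on only 12387 to 13250 genes (APP-KI replicate 4, C3aR-KO replicates 1 and 2, double-mutant replicate 1), and APP-KI replicate 5 had reads on 21219 genes. Results from the 14 libraries are therefore also given without these 5. C3ar1 itself stood at 276, 330 and 340 in WT, and at 39.9 to 68.1 in C3aR-KO and 61.9 to 80.4 in double-mutant libraries, which thus kept some reads. It was also low, at 71.0, 81.2 and 37.6, in the libraries labelled C3aR-positive WT, against 383, 251 and 201 in C3aR-positive APP-KI. The RNA of the C3aR-positive WT libraries thus goes against their label, and every direction drawn from them below carries that limit.

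Values are read counts scaled to the upper quartile of each library and brought near CPM by 1 constant. They are not divided by gene length, so levels are compared between genes only per kilobase (kb). The length used was that of all annotated exons of a gene merged, and the order of genes per kb depends on it. It was 3798 bases for H2-Aa, 2568 for H2-Ab1 and 1944 for H2-Eb1. Fold changes are on log2(scaled value + 1), with standard errors (SE) and p-values from limma, adjusted by Benjamini-Hochberg over all genes of the fit, and a gene passed at an adjusted p under 0.05. In bulk RNA, fewer expressing cells and less RNA per cell cannot be told apart.

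In WT microglia the invariant chain was the most abundant of the 10 transcripts per kb, with a mean scaled value of 667 per kb. H2-Ab1 followed at 204, H2-Eb1 at 159 and H2-Aa at 76.5 per kb. Cd86 lay at 62.2 per kb, near the alpha chain of I-A. The peptide exchange subunits H2-DMb1 and H2-DMa were at 34.8 and 20.4 per kb. The lowest were Cd80 at 5.29, Ciita at 3.46 and Cd40 at 0.530 per kb. The WT libraries themselves spread widely: the alpha and beta chains and Cd74 were all lowest in WT replicate 4. Over the 20 libraries Cd74 varied 10.7-fold between the lowest and the highest library and Cd86 only 1.60-fold.

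**Figure D1:**
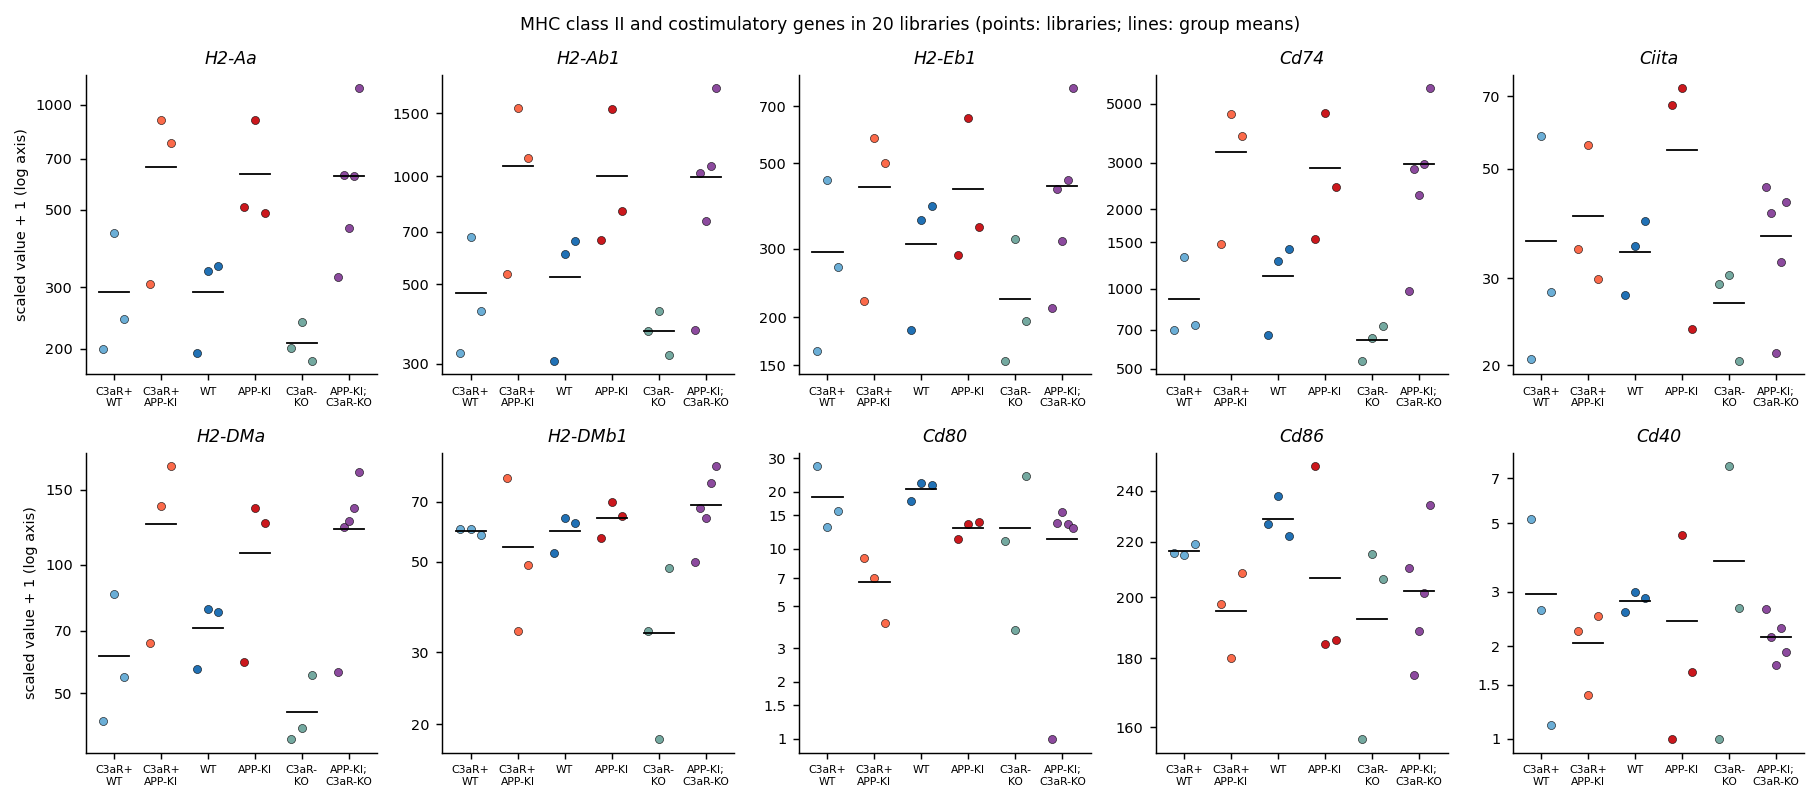
Scaled value + 1 of the 10 genes (log axes that differ between panels) in each of the 20 libraries, by condition, with points for libraries and lines for group means. Cd74 ran from 535 to 5737 and was above every library without APP-KI in all APP-KI libraries but double-mutant replicate 1, Cd80 was at 3.07 to 7.96 in C3aR-positive APP-KI, and Cd86 stayed between 156 and 249.

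The class II genes lie together on mouse chromosome 17, from 34119541 to 34316674 on mm10 (GRCm38): H2-DMa, H2-DMb1, H2-Ab1 and H2-Eb1 on the plus strand and H2-Aa on the minus strand. Class II promoters are known for an X box and, closer to the start, a Y box (CCAAT on the opposite strand). Of the 5 members with an entry in the RefSeq promoter table (GRCm38.p6), 3 had letters of both elements within 150 bases of the start. Their promoters are shown because the spacing was alike, with capitals for matches on either strand, some overlapping, to cores of the X2 box (TGATG or the variant with a C, TGACG), of the X1 box (AGCAAC) and of the Y box (GATTGG).
H2-Aa: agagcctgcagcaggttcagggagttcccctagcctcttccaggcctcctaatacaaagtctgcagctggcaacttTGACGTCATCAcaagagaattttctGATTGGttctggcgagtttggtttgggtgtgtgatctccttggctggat
H2-Eb1: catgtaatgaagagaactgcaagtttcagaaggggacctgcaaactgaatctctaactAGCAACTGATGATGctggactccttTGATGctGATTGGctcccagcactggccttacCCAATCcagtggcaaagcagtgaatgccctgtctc
H2-DMb1: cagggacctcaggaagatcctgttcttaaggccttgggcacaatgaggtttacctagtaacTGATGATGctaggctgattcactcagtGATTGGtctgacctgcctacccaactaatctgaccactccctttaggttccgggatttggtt
The windows are chr17:34287824-34287973 on the minus strand for H2-Aa, chr17:34305717-34305866 on the plus strand for H2-Eb1 and chr17:34153041-34153190 on the plus strand for H2-DMb1, and each ends 1 base before the start. Single short matches were common, since of 32851 promoter windows of 250 bases GATTGG was in 14.6%, its shorter form ATTGG in 33.8%, the X1 core in 12.2%, and the X2 core in 34.5% (the TGATG form) and 17.8% (the TGACG form). An X2 core of either form followed by GATTGG 10 to 30 bases downstream, an arrangement chosen after the sequences were seen, occurred in 208 windows (0.633%). The gap was 20 bases in H2-Aa, 21 in H2-Eb1 and 22 in H2-DMb1. The windows of H2-DMa (2 starts) and Cd80 lacked it. A match is a string of letters and not a measured binding site.

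APP-KI was compared with mice that lacked it in 3 sets that share no libraries: C3aR-positive microglia, sorted microglia with C3aR, and sorted microglia from C3aR-KO mice. The sorted groups were not balanced for Y-linked RNA. The summed level of 4 Y-linked genes was above 50 in 2 of 3 APP-KI and 1 of 3 WT libraries. It was above 50 in 5 of 5 double-mutant and 1 of 3 C3aR-KO libraries, and what part sex had was not tested. The sorted sets come from the same fit of 14 libraries, so they share its library series term and its estimate of the spread. In C3aR-positive microglia Cd74 rose and Cd80 fell, and these were the only 2 of the 10 that passed, beside 22.7% of all genes tested. In sorted microglia with C3aR none of the 10 passed limma's test, beside 4.14% of genes. In sorted C3aR-KO microglia Cd74, H2-Aa, H2-DMa and H2-DMb1 rose, 4 of the 10 beside 3.96% of genes that were higher.

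Cd74 stood at 702, 1322 and 731 in C3aR-positive WT and at 1484, 4569 and 3799 in C3aR-positive APP-KI. In sorted WT it was 668, 1278 and 1412, and in sorted APP-KI 1542, 4614 and 2423. In C3aR-KO it was 535, 654 and 725, and in the double mutant 980.5, 2835, 2259, 2962 and 5737. In all 3 sets the lowest APP-KI library was above the highest library without APP-KI, though in the C3aR-positive and the sorted set the gap was small, and replicate 1 of both C3aR-positive APP-KI and the double mutant was low for its group. The group means of Cd74 were 918 ± 350 (SD, n = 3) against 3284 ± 1606 (n = 3) in C3aR-positive microglia, a 3.36-fold difference (log2 1.75, SE 0.39, limma adjusted p = 0.012). Sorted WT and APP-KI averaged 1119 ± 396 and 2860 ± 1581 (n = 3 each), a log2 fold change of 1.49 (SE 0.48) that missed the threshold (limma adjusted p = 0.12). C3aR-KO and double-mutant libraries averaged 638 ± 95.9 (n = 3) and 2955 ± 1742 (n = 5), and Cd74 rose by 1.84 on the log2 scale (SE 0.42, limma adjusted p = 0.016).

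H2-Aa, the alpha chain of I-A, was at 199, 430 and 242 in C3aR-positive WT and 305, 903 and 775 in C3aR-positive APP-KI. Its values were 193, 333 and 345 in sorted WT and 508, 905 and 489 in sorted APP-KI. In C3aR-KO they were 199.8, 238 and 184, and in the double mutant 319, 627, 443, 624 and 1114. The groups did not overlap in either sorted set, while in the C3aR-positive set APP-KI replicate 1 fell below WT replicate 2. The log2 fold changes were 1.12 (SE 0.39, limma adjusted p = 0.066) in C3aR-positive, 1.19 (SE 0.37, adjusted p = 0.11) in sorted and 1.41 (SE 0.33, adjusted p = 0.018) in C3aR-KO microglia, so H2-Aa rose in the last of these.

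H2-Ab1, the beta chain of I-A, passed in none of the 3 sets. It was at 320.2, 677 and 419.6 against 534, 1549 and 1124 in C3aR-positive microglia and at 305, 605 and 660.0 against 663, 1538 and 797 in sorted microglia. In C3aR-KO it was 370.1, 420.2 and 318, and in the double mutant 372, 1018, 748, 1065 and 1759. Only the sorted WT and APP-KI groups were apart, and by a narrow margin. Its log2 fold changes were 1.12 (SE 0.37, limma adjusted p = 0.056), 1.05 (SE 0.45, adjusted p = 0.32) and 1.15 (SE 0.40, adjusted p = 0.11) in the order above.

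H2-Eb1 differed least among the chains. Its values were 162, 452 and 269 against 219.5, 580.2 and 498 in C3aR-positive microglia, and 184, 355 and 385 against 289, 651 and 341 in sorted microglia. In C3aR-KO libraries they were 153, 318 and 195, and in double-mutant libraries 210.0, 426, 314, 451 and 779. The groups overlapped in all 3 sets. The log2 fold changes of H2-Eb1 were 0.56 (SE 0.40), 0.57 (SE 0.43) and 0.81 (SE 0.38), with limma adjusted p of 0.33, 0.76 and 0.25.

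The peptide exchange subunits, which form 1 heterodimer, were unlike each other. H2-DMa was 42.1, 84.5 and 53.5 in C3aR-positive WT against 64.7, 136 and 169 in C3aR-positive APP-KI, and 56.1, 77.9 and 76.6 in sorted WT against 58.3, 135 and 124 in sorted APP-KI. In C3aR-KO it was 38.0, 40.4 and 54.2, and in the double mutant 54.9, 122, 126, 135 and 164. H2-DMa overlapped in the first pair of sets and was apart in the last, by less than 1 scaled unit between C3aR-KO replicate 3 and double-mutant replicate 1. Its log2 fold changes were 0.98 (SE 0.35, limma adjusted p = 0.068), 0.70 (SE 0.30, adjusted p = 0.32) and 1.20 (SE 0.27, adjusted p = 0.012), and it rose in the last set.

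H2-DMb1 stood at 59.0, 59.1 and 57.1 in C3aR-positive WT and at 79.1, 32.8 and 48.1 in C3aR-positive APP-KI. It was 51.3, 63.0 and 61.2 in sorted WT, 56.0, 68.8 and 63.7 in sorted APP-KI, 32.8, 17.4 and 47.2 in C3aR-KO and 48.9, 66.8, 62.7, 76.9 and 84.4 in the double mutant. Among the sorted libraries those of C3aR-KO were the lowest for this gene, and C3aR-positive APP-KI replicate 2, at 32.8, was as low. Double-mutant replicate 1, at 48.9, lay below the sorted WT range, and the other double-mutant libraries lay in or above it. H2-DMb1 rose by 1.02 on the log2 scale in the C3aR-KO set (SE 0.23, limma adjusted p = 0.013). In C3aR-positive microglia the log2 value was -0.22 (SE 0.27, adjusted p = 0.57) and in sorted microglia 0.24 (SE 0.25, adjusted p = 0.89). H2-DMb1 has a near copy, H2-DMb2, next to it (chromosome 17, 34143307 to 34151555), and the counting could have split reads between them.

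Ciita, the class II coactivator, did not pass in any set. Its values ran from 19.6 to 57.3 and from 28.9 to 54.9 in C3aR-positive WT and APP-KI, and from 26.8 to 38.3 and from 22.7 to 71.7 in sorted WT and APP-KI. In C3aR-KO they ran from 19.5 to 29.4 and in double-mutant libraries from 20.2 to 45.0. All 3 pairs overlapped. The log2 fold changes of Ciita were 0.26 (SE 0.37, limma adjusted p = 0.64), 0.36 (SE 0.35, adjusted p = 0.86) and 0.57 (SE 0.31, adjusted p = 0.32), so a change of the size seen for Cd74 was not detected in the coactivator, and intervals of 2 SE reached up to 1.00, 1.05 and 1.18.

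Of the costimulatory ligands, Cd80 was low throughout. It was at 26.1, 12.1 and 14.8 in C3aR-positive WT (813, 248 and 416 reads) and at 7.96, 5.98 and 3.07 in C3aR-positive APP-KI (154, 138 and 39 reads). These groups did not overlap, and Cd80 fell by 1.49 on the log2 scale (SE 0.42, limma adjusted p = 0.032). In sorted microglia it was 16.8, 21.3 and 20.7 in WT and 10.3, 12.6 and 12.8 in APP-KI, again with every APP-KI library below every WT library. In the other sorted set Cd80 was 9.93, 2.72 and 23.2 in C3aR-KO and 0, 12.7, 14.6, 12.6 and 11.8 in the double mutant, where replicate 1 had no read. The log2 fold changes in these sorted sets were -0.27 (SE 0.78, limma adjusted p = 0.98) and -0.60 (SE 0.69, adjusted p = 0.67). Both are adjusted for the library series, and all sorted libraries, those of C3aR-KO and the double mutant included, set that term and the SE. Without double-mutant replicate 1 the second log2 fold change turned to 0.24.

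Cd86 was nearly level. It was 214 to 218 in C3aR-positive WT and 179 to 207 in C3aR-positive APP-KI, which did not overlap. In sorted libraries it was 221 to 237 in WT, 183 to 249 in APP-KI, 156 to 214 in C3aR-KO and 174 to 233 in the double mutant. The log2 fold changes were -0.15 (SE 0.11), -0.15 (SE 0.17) and 0.06 (SE 0.15), with limma adjusted p of 0.32, 0.91 and 0.86. Cd40 was low, at 0 to 6.64 over the 20 libraries. It had no read in APP-KI replicate 4 and C3aR-KO replicate 1 and at most 422 reads, in C3aR-KO replicate 2, and it passed in none of the sets.

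**Figure D2:**
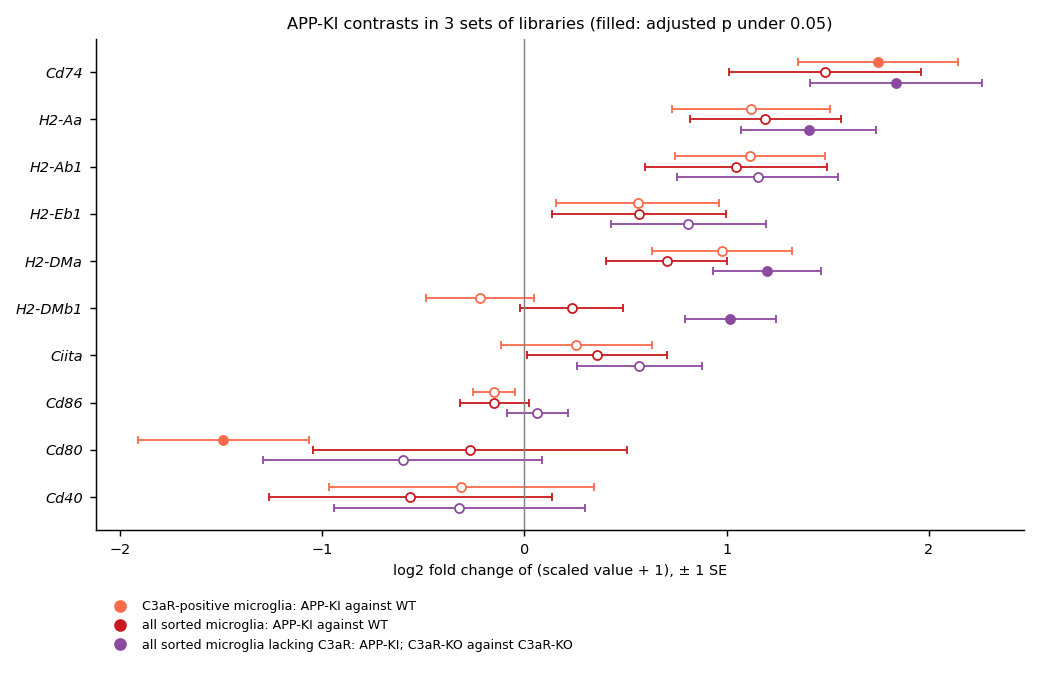
Log2 fold change of each of the 10 genes in the 3 APP-KI contrasts, with bars of 1 SE and filled points where the limma adjusted p was under 0.05. Cd74 lay at 1.75, 1.49 and 1.84, H2-DMb1 differed most between the contrasts (-0.22, 0.24 and 1.02), and the bars of Cd80 and Cd40 were the widest in the sorted sets.

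Read against all genes, 2 of the 10 passed in either direction in C3aR-positive microglia, where 22.7% of 12315 genes tested passed (1602 higher and 1195 lower), so that count is near the background. Groups that did not overlap were found for Cd74 upward (17.8% of genes) and for Cd80 and Cd86 downward (25.7% of genes). The median of the 10 was 0.41, against -0.17 for all genes. Median ratio scaling moved the all-gene median from -0.17 to -0.03 and the calls from 1602 higher and 1195 lower to 1846 and 605. With that scaling 2 of the 10 genes were higher, H2-Ab1 joining Cd74. In sorted microglia with C3aR 0 of 10 passed limma's test in either direction, where 2.22% of 12410 genes were higher and 1.93% lower (4.14% in all), and edgeR on the recovered reads also called 0. At an unadjusted p under 0.05 the count was 4 higher and 0 lower (H2-Aa, H2-Ab1, H2-DMa and Cd74), beside 5.95% and 6.49% of all genes. H2-Aa, H2-Ab1 and Cd74 were apart upward there (12.8% of genes) and Cd80 downward (16.4%). In C3aR-KO microglia 4 of 10 were higher and 0 lower, against 3.96% and 2.97% of all genes (6.93% together), and the same 4 were the ones whose groups were apart (6.34% of genes upward, 7.34% downward). The medians were 0.46 against -0.01 for all genes in the sorted set and 0.91 against -0.03 in the C3aR-KO set.

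Several of these calls turned on single libraries or settings. With no filter on low values, or with limma without a trend, neither Cd74 (adjusted p = 0.067 and 0.059) nor Cd80 (0.091 and 0.052) passed in C3aR-positive microglia, while edgeR called H2-Aa, H2-Ab1 and H2-DMa there beside both. In C3aR-positive microglia Cd74 passed with any library left out, but Cd80 did not pass without WT replicate 1 (log2 -1.18), WT replicate 3 (-1.57), APP-KI replicate 2 (-1.56) or APP-KI replicate 3 (-1.17). Without C3aR-positive APP-KI replicate 1, H2-Aa (1.60), H2-Ab1 (1.55) and H2-DMa (1.38) rose as well, and the same 3 rose without WT replicate 2 (1.44, 1.41 and 1.25). Those are the low APP-KI and the high WT library of that set. In the C3aR-KO set H2-Aa and Cd74 missed the threshold without C3aR-KO replicate 1 (log2 1.42 and 1.82, limma adjusted p = 0.055 for each), and without C3aR-KO replicate 3 only H2-DMb1 passed. With no filter H2-Aa (adjusted p = 0.060) and Cd74 (0.054) also missed it. H2-Ab1 rose there by 1.52 without double-mutant replicate 1.

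Leaving out the 5 libraries of unusual gene number, an alternative added after the data were seen, the chains of class II stood further apart in the C3aR-KO set. Cd74 was then at 2.31, H2-Aa at 1.95, H2-Ab1 at 1.92, H2-Eb1 at 1.39 and H2-DMa at 1.39 on the log2 scale. H2-DMb1 was at 0.65 and Cd80 at -0.76. C3aR-KO replicate 3 was then the only library of its group. In the sorted set with C3aR the same step lowered Cd74 to 0.98, H2-Aa to 0.65, H2-Ab1 to 0.49 and H2-Eb1 to 0.03. H2-DMa was then at 0.72 and Cd80 at -0.62. APP-KI replicate 6 was the only library of its group left. A lone library is assumed to vary like the other groups, so only effect sizes are given here.

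Within a library the ratio of 2 transcripts does not depend on the scaling. Cd74 gave 2.33 to 3.38 reads per H2-Ab1 read in the 11 libraries with APP-KI (median 2.95) and 1.45 to 2.28 in the 9 without (median 2.11). All 11 were above all 9. H2-Eb1 gave 0.375 to 0.564 reads per H2-Ab1 read with APP-KI (median 0.424) and 0.415 to 0.757 without (median 0.604). The exceptions were C3aR-KO replicate 1 at 0.415 and double-mutant replicate 1 at 0.564, both of series 2 and low in genes with reads, and C3aR-positive WT replicate 1 at 0.507. Without APP-KI 7 of 9 libraries were above 0.564. These ratios were looked at after the levels were seen and are given as a description, with no test.

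**Figure D3:**
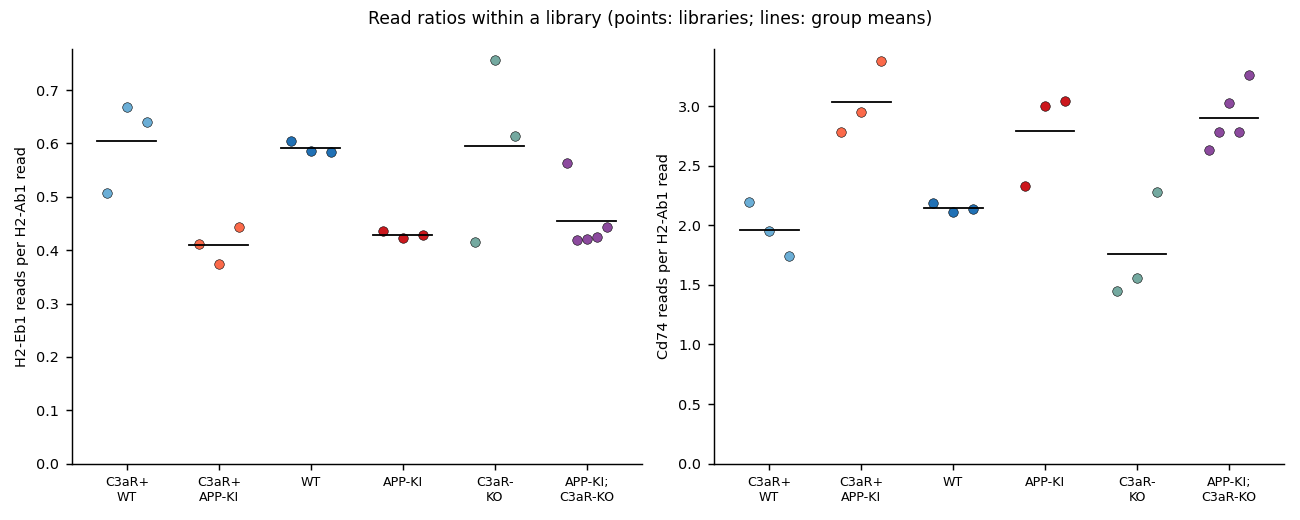
Reads of H2-Eb1 and of Cd74 per read of H2-Ab1 in each of the 20 libraries (linear axes from 0), with points for libraries and lines for group means. Cd74 per H2-Ab1 was 2.33 or more in every APP-KI library and 2.28 or less in every other library, and H2-Eb1 per H2-Ab1 was lower in most APP-KI libraries (median 0.424 against 0.604).

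Loss of C3aR was tested in mice without and with APP-KI, and the C3aR-KO and APP-KI groups each enter a comparison above too. Neither comparison called any of the 10 genes by limma or by edgeR. In both, 0.00% of 12410 genes were higher and 0.00806% lower, that single gene being C3ar1 itself (log2 -2.39 without and -1.95 with APP-KI, limma adjusted p = 0.0034 and 0.0097). At an unadjusted p under 0.05 the count among the 10 was 0 higher and 1 lower without APP-KI, beside 0.991% and 1.78% of all genes. With APP-KI it was 0 and 0, beside 0.306% and 0.878%.

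Between C3aR-KO and WT all 10 values were below 0, with a median of -0.41 against -0.03 for all genes. The lowest was H2-DMb1, at -0.80 (SE 0.25, unadjusted p = 0.0071, limma adjusted p = 0.99), and its C3aR-KO libraries (17.4 to 47.2) were all below the WT libraries (51.3 to 63.0). H2-DMa, at -0.46 (SE 0.30), and Cd86, at -0.25 (SE 0.17), were apart in the same direction, as were 9.31% of all genes downward and 9.16% upward. Cd74 was at -0.54 (SE 0.48). Without the 5 libraries, which leaves C3aR-KO replicate 3 alone in its group, H2-DMb1 was at -0.37 and Cd74 at -0.76.

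Between the double mutant and APP-KI the 10 values ran from -0.97 to 0.15, with a median of -0.13 against -0.03 for all genes. Cd74 was at -0.19 (SE 0.42), and an interval of 2 SE ran from -1.04 to 0.66. Its sign turned without the 5 libraries (0.57) and without series 2 (0.48). Cd80 was at -0.97 (SE 0.69, limma adjusted p = 1.00). Its value was 0.04 without the 5 libraries, among them the double-mutant library with no Cd80 read. No member was apart between these groups, where 0.604% of genes were apart upward and 1.01% downward.

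The effect of C3aR loss in APP-KI minus that in WT was also tested, and 0 of the 10 genes and 0.00% of 12410 genes passed by limma, with 0 of the 10 by edgeR. At an unadjusted p under 0.05 the count was 1 higher and 0 lower, beside 0.894% and 0.741% of all genes. That gene was H2-DMb1, with a difference of 0.78 (SE 0.35, unadjusted p = 0.041, limma adjusted p = 1.00), or 0.60 without the 5 libraries. It stood at 58.5 ± 6.29 (SD, n = 3) in WT, 32.5 ± 14.9 (n = 3) in C3aR-KO, 62.8 ± 6.45 (n = 3) in APP-KI and 67.9 ± 13.6 (n = 5) in double-mutant libraries.

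**Figure D4:**
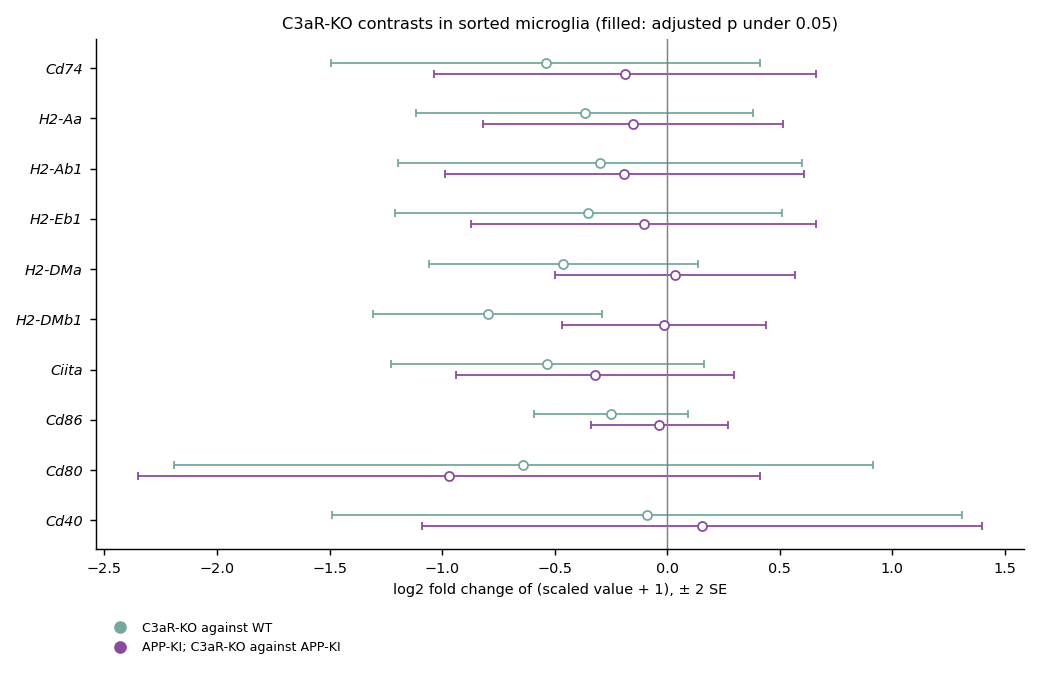
Log2 fold change of each of the 10 genes for loss of C3aR without APP-KI (C3aR-KO against WT) and with it (double mutant against APP-KI), with bars of 2 SE. All points are open, since none had a limma adjusted p under 0.05, and the bar of H2-DMb1 without APP-KI (centred at -0.80) is the one that does not cross 0.

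C3aR-positive and all sorted microglia came from different crosses and library series, which cannot be told apart from the sort. Among WT mice 0 of 10 genes passed limma's test, as did 0.00% of 12592 genes, and no member had an unadjusted p under 0.05, beside 1.00% of genes higher and 3.38% lower. Cd74 was at -0.28 (SE 0.48), and only Cd86 was apart, lower in the C3aR-positive libraries, as were 13.2% of genes (9.74% were apart upward). Among APP-KI mice 0 of 10 passed as well, with 0.00% of genes, and at an unadjusted p under 0.05 the count was 0 higher and 1 lower, beside 1.59% and 3.63% of all genes. That gene was Cd80, at -1.02 (SE 0.34, unadjusted p = 0.0099, limma adjusted p = 0.82), whose C3aR-positive libraries (3.07 to 7.96) lay below the sorted ones (10.3 to 12.8), as did the groups of 4.21% of genes. The APP-KI effect in C3aR-positive minus that in sorted microglia was -0.81 (SE 0.48, limma adjusted p = 0.50) for Cd80 and 0.47 (SE 0.67, adjusted p = 0.79) for Cd74. No member and 0.00% of genes passed that test, edgeR called 0 members in each of these 3 comparisons, and in the last the count at an unadjusted p under 0.05 was 0, beside 6.64% of genes higher and 5.11% lower.

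The genes around the pathway were taken from lists chosen with earlier results of these data known, and are counted in the same 3 APP-KI comparisons. Of 26 genes of class II assembly, antigen processing and class II transcription, 21 were listed and 20 tested. In C3aR-positive microglia 7 rose and 3 fell, beside 1602 higher and 1195 lower of 12315 genes tested. In sorted microglia 1 rose and 0 fell, beside 2.22% and 1.93% of genes. In the C3aR-KO set 4 rose and 1 fell, beside 3.96% and 2.97% of genes. The same background holds for the counts of the other lists and markers below. Their medians were -0.16, -0.10 and -0.13, near those of all genes (-0.17, -0.01 and -0.03).

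Cd83, which holds class II and CD86 at the cell surface by opposing the ubiquitin ligase MARCH1, rose in all 3 sets. It was 156, 149 and 161 against 467, 456 and 648 in C3aR-positive microglia, and its log2 fold changes were 1.73, 1.48 and 1.65 (limma adjusted p = 7.2e-05, 0.0017 and 0.00016). It ran from 125 to 243 in sorted WT against 341 to 602 in sorted APP-KI, and from 109 to 163 in C3aR-KO against 267 to 550.1 in the double mutant. The groups of Cd83 did not overlap in any of the sets.

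The lysosomal proteases Ctsd, Ctsl and Ctsb rose by 1.93, 1.84 and 1.82 on the log2 scale in C3aR-positive microglia, with H2-Oa, which encodes the alpha chain of an inhibitor of H2-DM, at 1.01, Ctss, the protease that completes the trimming of the invariant chain, at 0.76, and Marchf8 at 0.72. H2-Oa and Ctss passed in 7 of 13 settings each. Marchf1, the ligase for class II and CD86, fell by 0.90, Il10ra, a receptor chain of interleukin-10, by 0.64 and Lgmn, a lysosomal protease, by 0.61 (it passed in 6 of 13 settings). In the C3aR-KO set Ctsl rose by 1.79, Ctsb by 1.39 and Marchf8 by 0.54, and Il10ra fell by 0.67. Of these Ctsb passed in 8 of 19 settings, Marchf8 in 9 and Il10ra in 10. The subunits of the RFX complex that binds the X box (Rfx5, Rfxap and Rfxank) and of NF-Y that binds the Y box (Nfya, Nfyb and Nfyc), and Creb1, passed in none of the 3 sets.

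Of the other costimulatory and inhibitory ligands 13 of 21 were tested. The counts were 5 higher and 1 lower in C3aR-positive, 2 and 1 in sorted and 2 and 1 in C3aR-KO microglia, with medians of 0.40, -0.14 and 0.03. Cd274, which encodes the inhibitory ligand PD-L1, rose by 2.36, 2.40 and 2.17. It stood at 10.5 to 12.6 against 50.1 to 84.8 in C3aR-positive microglia, 8.13 to 8.47 against 42.6 to 68.5 in sorted microglia and 7.80 to 17.2 against 36.1 to 71.2 in the C3aR-KO set, with no overlap. Tnfsf8, the CD30 ligand, rose by 2.94, 2.81 and 2.51, although 1 C3aR-KO library stood at 45.8, inside the double-mutant range of 39.3 to 83.2. Icosl, the ligand of ICOS, fell by 0.68, 0.98 and 0.63. In C3aR-positive microglia Cd48, Tnfsf13b and Hvcn1, a proton channel that the list also held, rose as well, by 1.23, 1.02 and 0.70. In the sorted set Tnfsf8 passed in only 8 of 17 settings, and in the C3aR-KO set Icosl passed in 6 of 19 and Tnfsf8 in 13 of 19.

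Of 21 genes of interferon gamma signalling, the pathway that induces Ciita, 20 were tested. The counts were 4 higher and 5 lower, 0 and 2, and 0 and 3, with medians of -0.10, -0.15 and -0.21. In C3aR-positive microglia the chemokines Cxcl10 and Cxcl9 rose by 1.86 and 1.57, the transcription factor Irf8 by 0.62, and the guanylate-binding proteins Gbp3, Gbp7 and Gbp5 fell by 2.31, 1.71 and 1.23. The receptor chain Ifngr1 fell by 0.78, 0.93 and 0.90 in the 3 sets, and Irf2 fell by 0.46 in the first. Gbp7 fell in all 3 sets (-1.71, -1.90 and -1.83), and Gbp3 also in the C3aR-KO set (-2.55, in 9 of 19 settings). Ifngr1 passed in 7 of 17 settings in the sorted set and 14 of 19 in the C3aR-KO set. In C3aR-positive microglia Cxcl9 passed in 3 of 12 settings and Irf2 in 8 of 13. None of these 3 lists had a gene that passed in either comparison of C3aR loss.

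**Figure D5:**
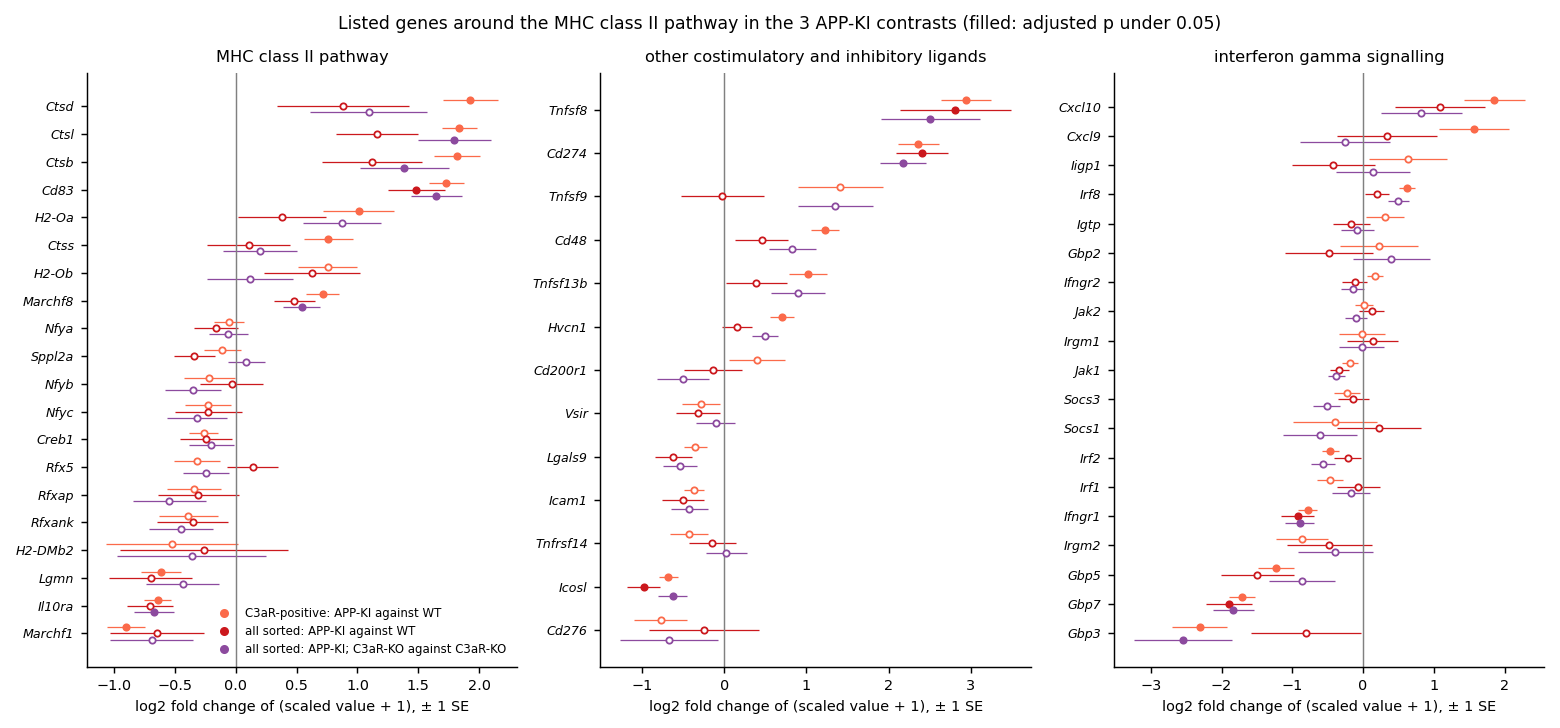
Log2 fold change of tested genes of the 3 lists in the 3 APP-KI contrasts, with bars of 1 SE and filled points where the limma adjusted p was under 0.05. Cd83 (1.73, 1.48 and 1.65) and Cd274 (2.36, 2.40 and 2.17) are filled to the right in all 3 contrasts, and Gbp7 (-1.71, -1.90 and -1.83) to the left.

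Markers of other cells that could enter the gate were counted beside these results. Border macrophage markers, from cells rich in class II, went the other way from Cd74: 0 of 10 rose and 7, 3 and 3 fell in the 3 sets. Their summed level was 1865 to 2157 against 586 to 1005 in C3aR-positive microglia, 1832 to 3022 against 686 to 902 in sorted microglia and 1565 to 2634 against 603 to 915 in the C3aR-KO set. Stab1 alone made up most of this sum in every library, at 1241 to 1493 against 399 to 584 in C3aR-positive microglia. Mrc1 came next in that set, at 240 to 391 against 88.4 to 212. Of 9 dendritic cell markers tested 2 rose and 1 fell in C3aR-positive microglia (Clec9a at 1.97, Sirpa at 0.71 and Cd209a at -2.31) and none passed in the sorted sets. Clec9a passed in 7 of 12 settings, Sirpa in 6 of 13. The median log2 fold change of the 9 dendritic cell markers was -1.12, -0.76 and -1.0005 in the 3 sets. That of all genes was -0.17, -0.01 and -0.03. Flt3 was 8.06 to 11.03 in C3aR-positive WT and 2.27 to 5.38 in C3aR-positive APP-KI and did not pass (log2 -1.28, limma adjusted p = 0.052). Clec9a was 0.14 to 0.34 against 2.53 to 5.98 in those groups. In the sorted sets Flt3 overlapped, at 6.86 to 9.16 against 3.07 to 8.69 and at 4.80 to 20.6 against 1.87 to 7.88. The summed level in C3aR-positive microglia, which Sirpa dominates, was 2411 to 2740.1 against 3426 to 5155.

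B cell markers moved with Cd74 in the C3aR-positive set, with sums of 29.4 to 50.4 in WT and 74.3 to 95.1 in APP-KI and 1 of 4 tested higher and 1 lower. Most of that sum was Cd22, which microglia also express (21.0 to 33.0 against 70.2 to 85.2), and Pax5 was at 0 in all 6 libraries. Cd79a was 0.64 to 2.92 in WT and 7.03, 0.95 and 0.24 in APP-KI. Ms4a1 was 0 to 0.05 in WT and 4.96, 0 and 0 in APP-KI. In the sorted sets the B cell sums were 29.2 to 41.1 in WT, 40.3 to 111 in APP-KI, 43.7 to 139 in C3aR-KO and 60.2 to 107 in double-mutant libraries, and 0 of 7 passed. T and NK cell markers summed to 12.1 to 128 and monocyte and neutrophil markers to 44.3 to 844 over the 20 libraries. The former had 1, 0 and 0 higher and the latter 0, 0 and 1 lower in the 3 sets, with no other call. Of 16 microglial markers 2 rose and 5 fell, 0 and 2, and 1 and 1. The summed level of 4 Y-linked genes was above 50 in 0 of 6 C3aR-positive, 1 of 3 WT, 2 of 3 APP-KI, 1 of 3 C3aR-KO and 5 of 5 double-mutant libraries. What part the sex of the mice or cells other than microglia had in the class II values was not tested. Of 12 plaque response genes tested 12, 11 and 12 rose in the 3 sets.

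The class II genes varied together from library to library. After each condition's mean was taken off the log2 values, Pearson's r over the 20 libraries, as a description, was 0.97 for H2-Aa with H2-Ab1, 0.96 for H2-Aa with H2-Eb1, 0.94 for H2-Aa with Cd74 and 0.97 for H2-Ab1 with Cd74. These libraries share the scaling, and no source states what libraries of a series, known only from their numbers, have in common. With the mean of these 4 genes, r was 0.86 for H2-DMa, 0.41 for Ciita, 0.27 for Cd80, 0.14 for Cd40, 0.00 for H2-DMb1 and -0.02 for Cd86. Without series 2 it was 0.82 for H2-DMa, 0.68 for Ciita and 0.32 for Cd86. In the same libraries it was -0.30 for Cd80, -0.19 for Cd40 and -0.34 for H2-DMb1. Among 12377 genes ranked, those outside the 10 that were most like the class II mean were Tap1, a subunit of the peptide transporter of MHC class I (0.84), H2-K1, a class I heavy chain (0.82), Asrgl1 (0.81), Lingo1, Btbd17 and Angel1 (0.79 each), and Dmrtb1 and Isoc2b (0.78 each). Tap1 and H2-K1 kept an r of 0.77 and 0.72 in the 13 libraries outside series 2.

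The costimulatory genes had other companions. Cd80 was most like Tuba1c (0.96), then Fam104a, Zbtb2, Timm21 and 4930430F08Rik. Cd86 was most like Stag2 and Eef1g (0.88 each), then Rps6ka3, Lzic and Clasp2 (0.79 to 0.81). Cd40 was most like 9430038I01Rik (0.93), then Zdhhc23, Hhat, Slco3a1 and Adam23. Without series 2 the r of these genes ran from 0.81 to 0.88 for Cd80, from 0.57 to 0.84 for Cd86 and from 0.71 to 0.91 for Cd40. None of the 5 genes listed for Cd80, Cd86 or Cd40 was among the 8 listed for class II.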

How the data were processed

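RNA-seq of sorted mouse microglia gave 20 libraries. Per the labels the authors trimmed with cutadapt, aligned to mm10 with TopHat2, counted with featureCounts and compared groups with DESeq2, with versions of cutadapt, featureCounts and DESeq2 not given in the sources used here. What the authors deposited under the name FPKM is a signal made by dividing read counts by each library's 75th percentile. Whole reads came back for 100% of values (tolerance 0.05). The counting, including any splitting of reads between near copies and any use of the molecular identifiers, is the authors' and could shift single genes.

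Values were multiplied by 35.2 and tested as log2(value + 1) with limma 3.58.1 (mean-variance trend) in R 4.3.3, on genes with a mean of at least 1, with Benjamini-Hochberg adjustment over 12315 to 12592 genes. The planned design assumed FPKM. This log-scale test was kept, and edgeR 4.0.16 on the recovered reads was an alternative. Fits were made of the 6 C3aR-positive libraries, of the other 14 with library series (from library numbers) as a term, and of the 12 WT and APP-KI libraries without one. Python 3.11.15 did the rest. The steps were tested on simulated data with 200 changed genes.

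The 10 members, the gene lists, the tests and the alternatives were chosen with earlier results of these data known. Named genes are the 10 members, C3ar1, up to 6 passing genes per list and comparison, and the genes most like class II (8), Cd80, Cd86 and Cd40 (5 each) by Pearson's r. Further listed genes, past the threshold or not, are named for their role, and were chosen after values were seen. Ratios and the promoter arrangement were chosen after values were seen. Lists were class II pathway, other ligands, interferon gamma signalling, plaque response, and markers of microglia, dendritic cells, border macrophages, monocytes and neutrophils, B cells, T and NK cells, and sex. Results were recomputed with a smaller pseudocount (0.1), no filter, a mean of at least 5, median ratio scaling, no trend, edgeR, an adjusted p under 0.0005, no series term, only the 2 groups compared, a replicate block, each library left out, and, added later, no series 2 and no 5 libraries of unusual gene number. Some listed genes entered the fits and counts but are not reported here by name.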

Additional observations from a re-analysis of the deposited data

Results flagged for a closer look

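APP-KI; C3aR-KO replicate 1, a library of series 2 with reads on only 12387 genes, lay far from the other 4 of its group in 4 measures, by Dixon's criterion for 5 samples (critical value 0.710). Its Cd80 was at 0, the lowest of the group. It had the highest H2-Eb1 reads per H2-Ab1 read (0.564) and the highest H2-Aa reads per H2-Ab1 read (0.858), and the lowest H2-DMa reads per H2-DMb1 read (1.12). Chance marks about 1 in 20 groups, and these 4 marks come from 1 library and are not independent.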

How the results depend on the processing

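Counts are of the 10 members. The share of all genes that passed in each setting is not set beside them, so they show only how the calls moved. In C3aR-positive microglia the count rising with APP-KI was 1, and became 0 at an adjusted p under 0.0005, 0 without a filter, 0 without a trend, 2 with median ratio scaling and 4 with edgeR, while leaving out 1 library gave 1 to 4. The count falling was 1, and became 0 at an adjusted p under 0.0005, without a filter and without a trend, with 0 to 1 on leaving out 1 library. In the C3aR-KO set the count rising was 4, and became 0 at an adjusted p under 0.0005, 2 without a filter and 2 with only the 2 groups compared, with 1 to 5 on leaving out 1 library. Fewer genes or libraries, or more genes, enter some of these fits. For the other settings the cause was not tested.

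Without the 5 libraries of unusual gene number, and likewise without series 2, APP-KI and C3aR-KO were each left with 1 library. Counts of genes passing are therefore not given for these settings. Directions turned as follows. In the sorted set with C3aR, Ciita was at -0.50 without the 5 libraries and -0.64 without series 2, and H2-Eb1 at -0.12 without series 2. Between the double mutant and APP-KI, Cd74 was at 0.57 and 0.48, and Cd80 at 0.043 and 0.010, in these settings. In the C3aR-KO set Cd86 was at -0.019 without the 5 libraries.

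Leaving out 1 library at a time turned these directions within the ranges given. In C3aR-positive microglia H2-DMb1 ran from -0.54 to 0.078 and Ciita from -0.069 to 0.68. In the sorted set Ciita ran from -0.12 to 0.88 and Cd80 from -0.50 to 0.27. Between the double mutant and APP-KI Cd74 ran from -0.56 to 0.32. In the C3aR-KO set Cd80 ran from -1.14 to 0.24 and Cd86 from -0.068 to 0.15.

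The replicate numbers were not taken as pairs in the main fits. Same-numbered libraries had r from -0.01 to 0.04 across genes in the C3aR-positive set, 0.087 to 0.25 in the sorted set and 0.00079 to 0.22 in the C3aR-KO set. Libraries of unlike number had r from -0.05 to 0.02, -0.22 to 0.20 and -0.24 to 0.24. With so few libraries in a group these values cannot decide whether the numbers pair the libraries. With a replicate block 5 members rose in the C3aR-positive set, 2 in the sorted set and 0 in the C3aR-KO set. In the fits with the block Cd74 was at 0.63 and Cd80 at 0.092 between the double mutant and APP-KI, and Cd86 at -0.0014 in the C3aR-KO set. Of 270 single-gene values that left out 1 library 244 kept direction and side of the threshold, 10 reversed, 9 fell short of the threshold and 7 newly passed it. Of 368 under the other settings 324 kept both, 11 reversed, 13 fell short and 20 newly passed. Depth limits Cd40 and Cd80 in C3aR-positive APP-KI.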
